A study of Mus musculus with 28 samples.

Results

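The ribosomal protein genes described here encode the proteins of the cytosolic ribosome. They were taken as the array probes whose gene name is Rpl or Rps with a number, or Rplp0, Rplp1, Rplp2 or Rpsa, leaving out the Rps6k kinases, Rps19bp and names ending in -ps. Of 80 genes so named, on 134 probes, 79 were well above background on 3 or more of the 28 arrays, out of 19434 such genes in all. Each of the 79 was above background on all 28 arrays, so the filter did not choose between conditions. Rpl3l, a paralog of Rpl3, was above background on 1 array and was left out. The 79 fall into 42 genes of the large subunit, 31 of the small subunit, the 3 stalk proteins Rplp0, Rplp1 and Rplp2, and the 3 paralogs Rpl7l1, Rpl22l1 and Rps27l. Each gene was read from its brightest probe. The probe named Rplp0 lies on another chromosome than the gene Rplp0 and is counted here under its name.

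The arrays hold RNA of CD8 and CD4 T cells sorted from old (20 months) and young (4 months) BALB/c mice. The cells were taken at 0 h, or after 4, 12, 24 or 72 h on plate-bound anti-CD3 and anti-CD28. These antibodies give the signals that activate a T cell through its receptor and the co-stimulatory receptor CD28. The 0 h groups have 3 arrays for each age and cell type (12 in all), and each of the 16 stimulated groups has 1. Cells cultured without the antibodies were not analysed here, so time in culture and stimulation cannot be told apart. RNA of each time point was pooled from 4 sortings. The labels call the cells naive but conflict on the sorting gate. The titles give it as low CD62L and high CD44, and the descriptions give it the opposite way round. Which gate was used, and so the state of the cells at 0 h, cannot be told from the labels. The 0 h replicates may be technical, so p-values measure the spread between these arrays only, and the number of arrays limits the precision. In bulk RNA, fewer cells of a type and less RNA per cell cannot be told apart.

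A ribosome is built from ribosomal RNA and a protein from nearly each of these genes, and a resting T cell makes few new ribosomes. After activation T cells grow before they divide, and ribosome production is known to rise. Most ribosomal protein mRNAs start with a terminal oligopyrimidine (TOP) tract, a C followed by further pyrimidines. The kinase mTOR acts through this tract, so the output of these mRNAs is set largely by how well they are translated, which an array of total RNA does not measure.

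The sequences around the annotated starts are shown because the tract is the feature that the family is known for. The genes shown beside the paralogs are examples that all have a run of 9 or more pyrimidines. Most annotated starts of the family lack one (23 of 71 have 8 or more), such as those of Rps28 (4) and Rpl11 (2). The sequences therefore show no contrast between the family and its paralogs. Each run has 30 bases, 15 before the RefSeq start and 15 from it (GRCm38.p6, 5′ to 3′ on the gene's strand), and capitals mark the longest unbroken stretch of C and T that touches the bases within 5 of the start.
Rps6, chr4:86857353-86857382, minus strand: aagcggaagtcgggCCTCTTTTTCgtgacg
Rpl35, chr2:39005117-39005146, minus strand: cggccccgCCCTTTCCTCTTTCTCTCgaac
Rpl15, chr14:18270972-18271001, minus strand: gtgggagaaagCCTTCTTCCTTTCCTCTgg
Rpl14, chr9:120571502-120571531, plus strand: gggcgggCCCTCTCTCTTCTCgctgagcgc
Rps27, chr3:90213634-90213663, minus strand: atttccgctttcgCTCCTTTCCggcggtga
Rps26, chr10:128626492-128626521, minus strand: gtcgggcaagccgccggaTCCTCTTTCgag
Rpl22l1, chr3:28805493-28805522, plus strand: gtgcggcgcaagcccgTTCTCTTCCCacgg
Rps27l, chr9:66946071-66946100, plus strand: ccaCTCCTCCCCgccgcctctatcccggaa
Rpl7l1, chr17:46782642-46782671, minus strand: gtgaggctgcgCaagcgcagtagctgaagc
Rps6, the ribosomal protein phosphorylated by the S6 kinases, has a run of 10 pyrimidines and Rpl35 one of 18. Rpl22l1 has a run of 10, whereas Rpl7l1 has a single C there. The run of Rps27l, 9 bases long, lies upstream of the annotated start and only its last bases reach the window.

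RefSeq starts were found for 60 of the 80 genes, 71 starts in all. A run of 8 or more pyrimidines touched the window in 23 of the 71 starts (32.4%), against 3194 of 32851 starts of all genes (9.72%). The letters CCGGAAG, on either strand between 250 bases before and 50 bases after the start, were found in 35.2% of the ribosomal protein starts and 8.86% of all. The letters CACGTG, the core of the E-box that Myc binds, were found in 8.45% and 7.15%. A match is only a match of letters, and annotated starts can differ from the start a cell uses.

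Values are log2 of the probe's signal over the 75th percentile of its array, so a difference of 1 is a doubling relative to that percentile, and levels of different probes cannot be compared. The T cell markers Cd3d, Cd3e, Cd3g, Cd2, Cd5, Lck, Zap70 and Trat1 were above background on every array (8 of 8). The summed signal of 4 CD8 markers at 0 h was 392.8 to 672.2 times the 75th percentile in CD8 arrays, against 6.43 to 12.0 in CD4 arrays. The summed signal of 3 CD4 markers was 0.234 to 0.779 in CD8 arrays and 2.73 to 7.54 in CD4 arrays. B cell and myeloid markers were present in part: of 12 B cell markers 2 to 9 were above background on the stimulated CD8 arrays, with a sum of 2.39 to 4.56, against 8 to 12 on the CD8 0 h arrays, with a sum of 10.8 to 26.4. Of 12 myeloid markers 4 to 11 were above background on the stimulated CD8 arrays (0.794 to 72.7), against 10 to 12 at 0 h (8.50 to 189.7). In CD4 cells the B cell sums were 1.40 to 4.22 in stimulated arrays and 2.95 to 12.2 at 0 h, and the myeloid sums 1.15 to 143.3 and 3.30 to 244.2. At 24 h in CD8 cells 8 of 11 tested B cell markers, 8 of 12 myeloid markers, 4 of 6 NK cell markers and 3 of 4 erythroid and platelet markers fell, as did 5 of 8 T cell markers (limma, adjusted p below 0.05). The part of these other cells in the changes below was not tested.

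Several arrays stand apart. On the 6 CD4 arrays at 12, 24 and 72 h, probes printed several times varied by a median of 16.9 to 22.2%, against 4.41 to 10.5% on the other 22. On these 6 arrays 3.80 to 29.1% of the ribosomal protein spots were flagged as outliers by the scanner software and left out, most at 72 h, where 23 of 79 were missing at each age. Of other bright genes 9.15 to 24.0% were flagged on the same arrays. Outside the 6, the highest counts of flagged spots in the family were on old replicate 3 and young replicate 1 of the CD8 0 h arrays, 8 and 10 of 79. The log2 differences of the genes from their 0 h means had an SD of 0.82 to 2.15 on these 6 arrays and of 0.15 to 0.72 on the rest. At 12 h the old and the young CD8 array each have a slide of their own and differ in scan. At 4, 24 and 72 h the CD8 arrays of both ages share a slide. The 0.72 belongs to the old CD8 array at 12 h. Across the genes its differences followed those of the CD4 arrays at 12 h. Pearson r was 0.85 with the old and 0.86 with the young array, over 74 and 72 genes. With the young CD4 24 h array it was 0.87, over 69 genes. Pearson r was lower with the old 24 h, both 72 h and the young 4 h arrays (0.59 to 0.72) and the old 4 h array (0.15). By rank correlation (Spearman) the old 24 h array was no less close, with 0.85, against 0.79 and 0.83 for the old and young 12 h arrays. The old CD8 12 h array followed the 12 h CD4 arrays more closely than the young CD8 12 h array did (Pearson r 0.31 and 0.32, over 76 and 74 genes). These correlations describe spots of the same probes, which are not independent. Old and young replicate 3 of the CD4 0 h arrays, on a slide and a scanner other than those of replicates 1 and 2, also stand apart. Over all genes they differed from replicates 1 and 2 with an SD of 1.2 to 1.26, against 0.458 and 0.502 between replicates 1 and 2. Their summed myeloid marker signal was 239.3 (old) and 244.2 (young), against 3.30 to 13.7 on the other CD4 0 h arrays. On the young one 76 of 79 ribosomal protein genes were below the 0 h mean, a count not made over all genes. Each stimulated time point has slides of its own, so slide and time cannot be told apart. All stimulated CD4 arrays were read on another scanner model than replicates 1 and 2 of the CD4 0 h arrays. All stimulated CD8 arrays were scanned at other times than most CD8 0 h arrays, on the same model. Scan and stimulation are thus mixed, and the difference between the CD8 and CD4 changes is mixed with scanner model.

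**Figure D1:**
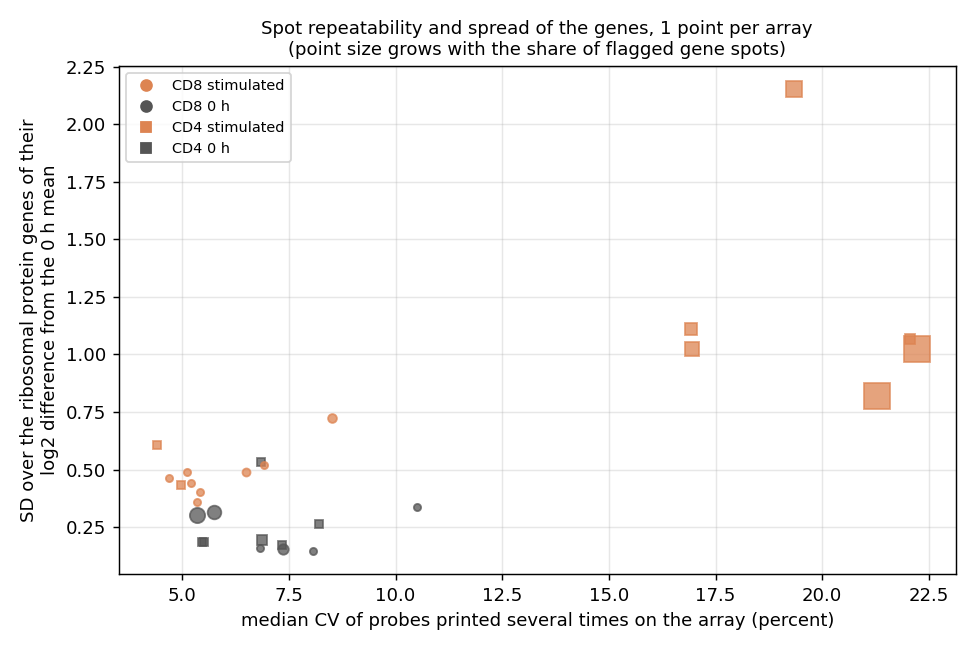
Spot repeatability of each array, as the median coefficient of variation of probes printed several times (horizontal axis, percent), against the SD over the ribosomal protein genes of their log2 difference from the 0 h mean of the same cell type (vertical axis). The 6 CD4 arrays at 12, 24 and 72 h lie right of 16% with an SD of 0.82 or more, and the old CD8 12 h array is the highest of the others at 0.72.

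The time labels of the stimulated CD8 arrays are also in doubt. Of the columns of the authors' deposited table, 22 of 28 hold the values of the same sample's scanner file, and 6 hold those of another time of the same age. The columns for CD8 cells at 4, 12 and 24 h carry the scanner values labelled 12, 24 and 4 h, with an SD of the differences of 0.0079 or less from that array and of 0.977 to 1.21 from the array of the same label. Over the genes outside the family, 8 of 8 stimulated CD8 arrays correlated best with the CD4 arrays of the same labelled time when the scanner files' labels were used. The scanner files' labels are followed below. With the table's placement the CD8 results given for 12, 24 and 4 h would be those of 4, 12 and 24 h.

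The typical ribosomal protein gene was lower in CD8 cells at 12 and 24 h of stimulation than at 0 h, by a median log2 difference of -0.44 and -0.49, while the median of all genes was 0.01 and -0.10. At 4 h the median was -0.15 and at 72 h -0.11, against 0.08 and 0.01 over all genes. Relative to the median of all genes the difference was -0.23 at 4 h, -0.44 at 12 h, -0.39 at 24 h and -0.12 at 72 h. With arrays scaled to their median, which raises the median of all genes by 0.23 at 12 h and 0.39 at 24 h, the same relative differences were -0.51 and -0.39. After quantile normalization they were -0.17 and -0.25. At 72 h the relative difference turned to 0.01 after quantile normalization.

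**Figure D2:**
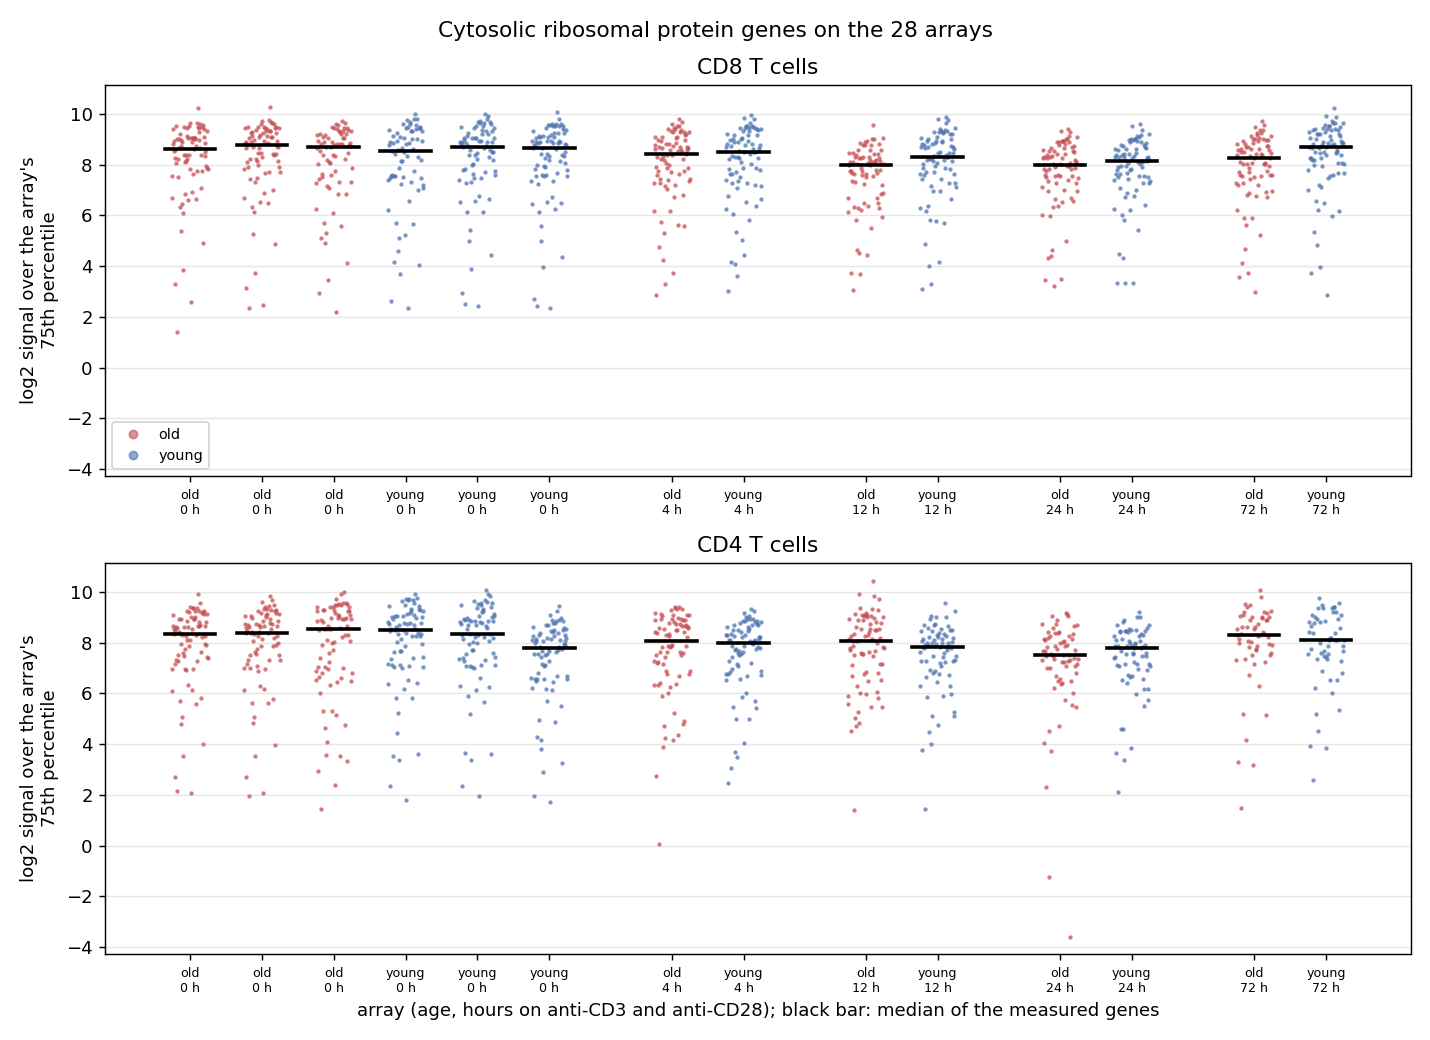
Each point is 1 ribosomal protein gene on 1 array, as log2 signal over the 75th percentile (vertical axis), in CD8 cells above and CD4 cells below, old in red and young in blue, by hours of stimulation. Black bars are the array medians. They lie at 8.00 (old) and 8.14 (young) after 24 h in CD8 cells, below the 8.54 to 8.75 of the 6 CD8 0 h arrays.

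The array medians of the family show the same course. In CD8 cells at 0 h they were 8.63 to 8.75 (mean 8.69 ± 0.06, SD, n = 3) in old and 8.54 to 8.69 (8.62 ± 0.08, n = 3) in young cells. They were 8.41 in old and 8.50 in young cells at 4 h, 7.98 and 8.31 at 12 h, 8.00 and 8.14 at 24 h, and 8.25 and 8.69 at 72 h. Both arrays at 4, 12 and 24 h and the old 72 h array lie below all 6 arrays at 0 h, lowest at 12 and 24 h, and the young 72 h array lies within their range. At 24 h, 73 of 78 genes measured on the old array and 72 of 79 on the young array were below the 0 h mean. The same count was not made over all genes, whose fitted median at 24 h was also below 0 (-0.10). The genes of an array are not independent.

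In a model across all genes (limma, Benjamini-Hochberg adjustment over all genes, adjusted p below 0.05), 2 ribosomal protein genes rose and 16 fell in CD8 cells at 24 h, of 79 tested (31 at an unadjusted p below 0.05). Of all genes tested, 16.1% rose and 17% fell at that time. At 12 h 2 rose and 18 fell, against 16% and 14.2% of all genes. At 4 h 2 rose and 1 fell (14.3% and 13% of all genes), and at 72 h 2 rose and 0 fell (13.6% and 14.4%), with 5 genes at an unadjusted p below 0.05. The number of falls depends on the scaling: 12 fell at 12 h and 7 at 24 h after quantile normalization, and 0 at either time with arrays scaled to their median (2 and 3 rose), a scaling that raises all genes and leaves the relative difference above as it was or larger. With the slide as a random block 3 fell at 12 h and 0 at 24 h.

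All 16 falls at 24 h, of 79 genes where 17% of all genes fell, were of genes whose stimulated arrays both lay below every 0 h array. That is partly built in for genes already called lower, and the same count was not made over all genes. The 16 falls comprise 8 large subunit genes of 42 and 8 small subunit genes of 31. Rps19, a small subunit protein mutated in some human Diamond-Blackfan anaemia, had values of 7.93 (old) and 8.01 (young) at 24 h, against 9.06 to 9.48 in old and 8.75 and 8.86 in young cells at 0 h, where 1 young spot was flagged. Its log2 difference was -1.12 (SE 0.30, limma adjusted p = 0.00772), 2.17-fold lower. Rps28, of the small subunit, had 8.53 and 8.68 at 24 h, against 9.44 to 9.58 in old and 9.46 to 9.59 in young cells at 0 h. The stimulated values lie clear of the 6 tight 0 h values, and the difference was -0.90 (SE 0.25, adjusted p = 0.00851, limma). Rpl17, of the large subunit, had 7.75 and 7.92 at 24 h and 8.54 to 8.75 at 0 h, a difference of -0.81 (SE 0.19, adjusted p = 0.0043). Rps21 and Rps29 completed the 5 largest falls, with -0.91 and -0.88. Their calls were lost in 13 of 25 and 11 of 24 alternatives. Those of Rps28, Rps19 and Rpl17 were lost in 8, 7 and 6 of 25. Without the old or the young CD8 24 h array no gene fell and 1 rose, Rps27l. Rises and falls together numbered 9 without the second old 0 h array, 11 without the first, and 14 to 18 without any other array in turn.

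At 12 h the falls were led by Rpl30 (-1.32, SE 0.45, limma adjusted p = 0.0402), Rpl22l1 (-1.15), Rps6 (-1.15), Rps27a, which carries ubiquitin at its start (-1.12), and Rps4x (-1.06). Of the 18, 8 had stimulated arrays that both lay below every 0 h array, a count not made over all genes. Rps6 had 5.94 in old and 7.63 in young cells at 12 h, against 7.96 and 8.13 in old and 7.48 to 8.17 in young cells at 0 h. The young value lies inside the range at 0 h, so the fall of Rps6 rests on the old 12 h array, which is the one that stands apart. Rpl30 showed the same split, with 4.53 in old and 7.16 in young cells at 12 h, against 6.07 to 7.31 in old and 7.31 and 7.59 in young cells at 0 h. Without the old 12 h array 3 genes fell and 2 rose at 12 h, and the median difference was -0.23. Without the second or the third old 0 h array 9 and 13 genes were called.

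**Figure D3:**
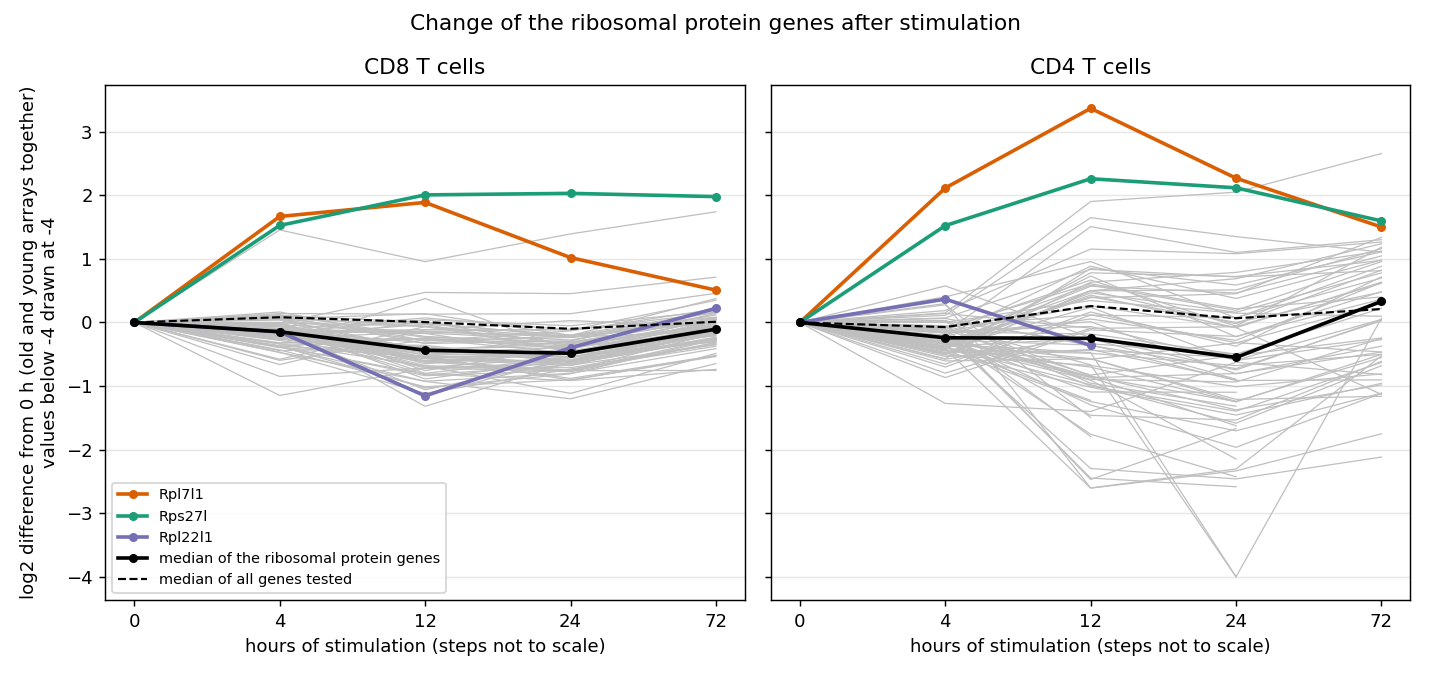
Log2 difference from 0 h of each ribosomal protein gene (grey), with old and young arrays fitted together, by hours of stimulation in CD8 cells (left) and CD4 cells (right). Rpl7l1 and Rps27l are above 0 at every time in both cell types, the solid black line is the median of the family and the dashed line the median of all genes tested. Values below -4 are drawn at -4 (Rps24 and Rpl27 in CD4 cells at 24 h).

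A second probe was available for part of the family. In CD8 cells at 24 h, 30 of 43 other probes differed from 0 h in the same direction as the brightest probe of their gene, and 9 of 10 did so among genes that were called. At 12 h the counts were 27 of 43 and 7 of 8. The median over the other probes was -0.44 at 24 h and -0.20 at 12 h. The exception among the called genes at 24 h was Rpl27a, with -0.65 (adjusted p = 0.0361, limma) for the brightest probe and a positive value for the other.

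The paralogs Rpl7l1 and Rps27l went against the rest of the family. Rpl7l1 is a relative of Rpl7 whose yeast counterpart acts in ribosome assembly and not in the finished ribosome, and Rps27l is a relative of Rps27 that p53 induces in human cells. The probe of Rpl7l1 lies on chromosome 17 from 44903793 to 44903852 and that of Rps27l on chromosome 9 from 66979145 to 66980835 (mm7, as the files give them).

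In CD8 cells Rpl7l1 had 2.60, 2.48 and 2.17 in old and 2.36, 2.44 and 2.36 in young cells at 0 h, then 3.72 in old and 4.42 in young cells at 4 h, 4.44 and 4.14 at 12 h, 3.50 and 3.34 at 24 h, and 2.97 and 2.85 at 72 h. All 8 stimulated values lie above all 6 values at 0 h, highest at 4 and 12 h. The differences were 1.67 (SE 0.27, limma adjusted p = 0.000141) at 4 h, 1.89 (4.49e-05) at 12 h and 1.02 (0.00689) at 24 h, and the 0.51 at 72 h did not pass (0.18). A second probe of Rpl7l1 gave 2.21, 1.79, 2.16 and 1.05 at these times. In CD4 cells Rpl7l1 had 2.05, 2.06 and 2.38 in old and 1.79, 1.97 and 1.73 in young cells at 0 h, 4.17 and 4.05 at 4 h, 5.98 and 4.75 at 12 h, 4.69 and 3.84 at 24 h, and 3.16 and 3.84 at 72 h. The differences were 2.11, 3.37, 2.27 and 1.50, all called. The second probe gave 2.67 at 4 h but -1.23 at 12 h, -0.12 at 24 h and -3.81 at 72 h, so in CD4 cells only the 4 h rise is seen by both probes.

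Rps27l has 1 probe. In CD8 cells it had 4.91, 4.86 and 4.12 in old and 4.02, 4.43 and 4.37 in young cells at 0 h, 5.58 and 6.37 at 4 h, 6.28 and 6.63 at 12 h, 6.56 and 6.41 at 24 h, and 6.70 and 6.16 at 72 h. It rose by 4 h and stayed high through 72 h, with no overlap with 0 h at any time. The differences were 1.53 (SE 0.30, limma adjusted p = 0.00066) at 4 h, 2.01 at 12 h, 2.03 (3.36e-05) at 24 h and 1.98 (5.58e-05) at 72 h, a 4.08-fold rise at 24 h. In CD4 cells it had 3.99, 3.95 and 3.35 in old and 3.62, 3.62 and 3.26 in young cells at 0 h, 4.89 and 5.42 at 4 h, 5.81 and 5.98 at 12 h, 6.02 and 5.48 at 24 h, and 5.13 and 5.33 at 72 h. The differences there were 1.52, 2.26, 2.12 and 1.60, all called. The mean change over the 4 times differed between CD8 and CD4 cells by 0.01 (SE 0.28, adjusted p = 0.985, limma), a p that does not show the changes to be alike.

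**Figure D4:**
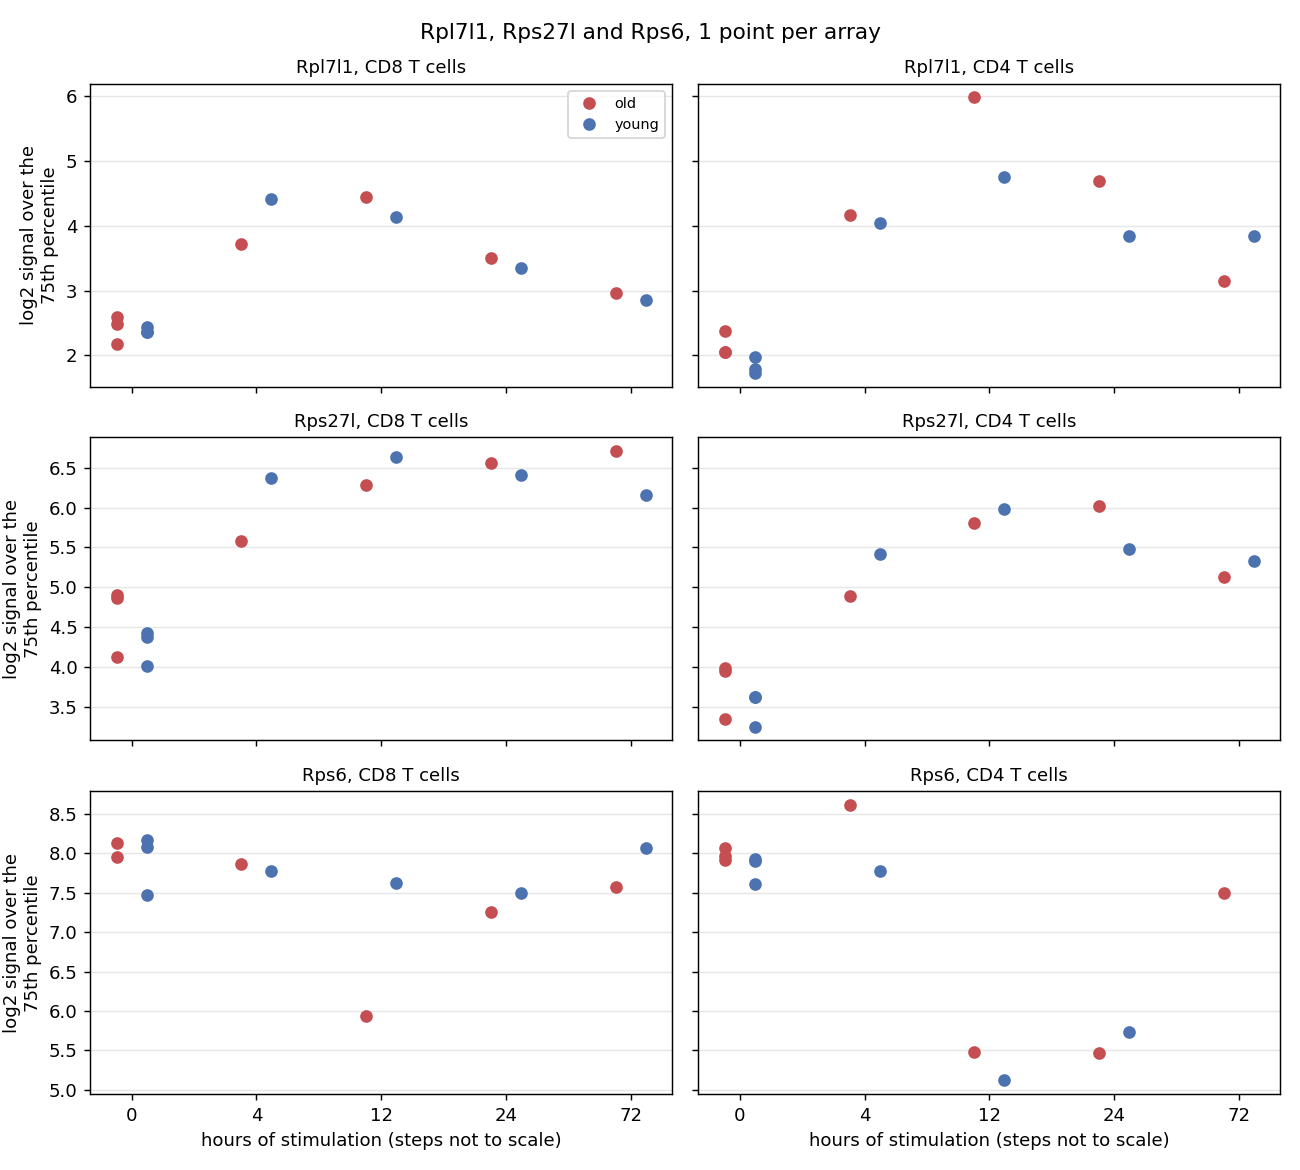
Log2 signal over the 75th percentile of Rpl7l1, Rps27l and Rps6 on each array, old in red and young in blue, by hours of stimulation, in CD8 cells (left) and CD4 cells (right). Rpl7l1 and Rps27l are above their 0 h values on all 16 stimulated arrays. Rps6 falls to 5.94 on the old CD8 12 h array and to between 5.12 and 5.73 on the 4 CD4 arrays at 12 and 24 h.

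Rpl22l1, the paralog of Rpl22, took another course in CD8 cells. It had 7.44 to 7.51 in old and 7.24 to 7.54 in young cells at 0 h, 7.26 and 7.27 at 4 h, 6.34 and 6.18 at 12 h, 6.96 and 7.07 at 24 h, and 7.27 and 8.00 at 72 h. Both 12 h arrays lie below all other CD8 arrays, with a difference of -1.15 (SE 0.24, limma adjusted p = 0.00168). In CD4 cells most of its spots after 4 h were flagged, and only 1 value was left, 6.64 in young cells at 12 h.

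The course over the 14 CD8 arrays was alike for most of the family. The correlation with the median of the other members was above 0.5 for 62 of 79 genes, with a median of 0.76, and below 0 for 4. These were Rps27l (-0.73), Rpl7l1 (-0.68), Rpl14 (-0.51) and Rpl21 (-0.26). The genes share arrays and scaling, so this is a description. Rpl14, of the large subunit, had 3.57 and 3.73 at 72 h, against 2.94 to 3.29 in old and 2.64 to 2.93 in young cells at 0 h. The difference was 0.71 (SE 0.24, adjusted p = 0.0332, limma), a call lost in 10 of 25 alternatives. Rpl21 ranged from 1.41 to 5.12 among the 6 CD8 arrays at 0 h, a spread wider than its changes.

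In CD8 cells genes with and without a pyrimidine run at the start had close medians. At 24 h the 23 genes with a run of 8 or more had a median difference of -0.46, against -0.49 in the 36 matched genes without one, and at 12 h -0.43 against -0.48. In CD4 cells the medians were 0.12 against -0.43 at 12 h and -0.02 (21 genes) against -0.68 (33 genes) at 24 h, on the arrays that stand apart.

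In CD4 cells the family split, with rises and falls side by side from 12 h on. At 4 h 2 genes rose and 1 fell of 79 (15.7% and 16.4% of all genes), and the median difference was -0.24, against -0.07 over all genes. The 2 were again Rpl7l1 and Rps27l, and the 1 that fell was Rpl27a, with 3.87 in old and 3.69 in young cells at 4 h, against 4.65 to 4.85 in old and 3.81 and 4.43 in young cells at 0 h (-0.70, adjusted p = 0.029, limma). Rpl27a also fell in CD8 cells at 4 h, with 4.26 and 4.09, against 4.90 to 5.37 in old and 4.60 to 5.0 in young cells at 0 h (-0.85, SE 0.23, adjusted p = 0.0092, limma). Its 4 h arrays lie below all 6 CD8 arrays at 0 h. These 4 h arrays are not among those that stand apart. A dimmer probe of Rpl27a went the other way at 4 h, with 0.58 in CD4 cells and 0.74 in CD8 cells.

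At 12 h 12 genes rose and 25 fell of 79 in CD4 cells, against 24.2% and 16.4% of all genes. At 24 h 7 rose and 35 fell of the 73 with a measured spot, against 25.1% and 19.6%, and at 72 h 21 rose and 12 fell of 62, against 22.1% and 16.9%. The medians of the family were -0.25, -0.55 and 0.33, against 0.26, 0.07 and 0.21 over all genes. Relative to all genes they were -0.51, -0.62 and 0.12, and after quantile normalization -0.17, -0.16 and 0.27. Without the old 24 h array 25 were called at 24 h, and without the young 72 h array 13 at 72 h. The falls at 12 h were led by Rps7 (-2.61), Rps6 (-2.60), Rps4x (-2.47), Rpl30 (-2.45) and the stalk protein Rplp1 (-2.30), and the rises, after Rpl7l1 and Rps27l, by Rpl29 (1.90), Rpl14 (1.65) and Rpl35 (1.51). Of the 25 falls 6 rest on 1 array, the other spot being flagged: Rps4x and Rpl30 were measured on the old and Rplp1 on the young 12 h array only. At 24 h Rpl30, Rplp1 and Rps27a fell by 2.58, 2.46 and 2.43, and Rpl29, Rpl14 and Rpl35 rose by 2.05, 1.35 and 1.1 (limma). Of the 35 falls 6 rest on 1 array, that of Rpl30 among them. At 72 h the falls included Rplp1 (-2.12), Rps7 (-1.75), Rps12 (-1.16) and Rplp2 (-1.11), and the rises were led by Rpl29 (2.66), Rps27l (1.60), Rpl7l1 (1.50), Rpl28 (1.34) and Rpl35 (1.30). Of the 12 falls 5 rest on 1 array, those of Rplp1, Rps7 and Rps12 among them, and all of the 21 rises on both.

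Rps6 shows how large the CD4 differences were. It had 7.91 to 8.07 in old and 7.61 to 7.93 in young cells at 0 h, 8.61 and 7.78 at 4 h, 5.48 and 5.12 at 12 h, 5.46 and 5.73 at 24 h, and 7.49 in old cells at 72 h, where the young spot was flagged. The 4 values at 12 and 24 h lie clear below every other CD4 value. Rpl29 moved the opposite way, with 3.58 to 5.05 in old and 4.16 to 5.24 in young cells at 0 h, 4.71 and 5.0 at 4 h, 6.30 and 6.92 at 12 h, 6.99 and 6.52 at 24 h and 7.36 and 7.37 at 72 h. The 3 other probes of Rpl29 gave 0.90, 0.75 and 0.09 at 12 h, against 1.90 for the brightest. Among other probes of the called genes, 16 of 27 had the direction of the brightest probe at 12 h and 12 of 23 at 24 h, so about as many went against it as with it.

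The CD4 values also depend on spots that were left out. With the flagged spots kept, 19 genes rose and 25 fell at 72 h and the median was -0.27. Rps24 and Rpl27 had -3.59 and -1.25 on the old CD4 24 h array, against 8.09 to 8.96 and 8.39 to 9.28 at 0 h, and gave the largest fitted falls at 24 h (-6.58 and -5.71). On the young 24 h array they had 7.83 and 7.67. For Rps24 that 1 value widened the standard error of the whole fit to 2.26 at 24 h in CD8 cells, where its difference of -1.20 did not pass (adjusted p = 0.743, limma).

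By class, 0 of 42 large subunit genes rose and 7 fell at 12 h in CD8 cells (median -0.38). Of 31 small subunit genes 0 rose and 10 fell (median -0.54), where 16% of all genes rose and 14.2% fell. At 24 h 8 fell in each, with medians of -0.47 and -0.56, where 17% of all genes fell. In CD4 cells 9 of 42 large subunit genes rose and 12 fell at 12 h, against 1 and 11 of 31 of the small subunit. Of all genes 24.2% rose and 16.4% fell then. At 24 h the counts were 5 and 15 of 37, against 0 and 18 of 31 (25.1% and 19.6% of all genes). At 72 h they were 14 and 2 of 29, against 4 and 8 of 28 (22.1% and 16.9% of all genes). A difference between the classes was not tested.

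The stalk proteins sit on the large subunit and bring in the factors that drive translation. In CD8 cells none of the 3 passed at any time, and their medians were -0.03, -0.61, -0.46 and -0.10 at 4, 12, 24 and 72 h. The 3 include the probe named Rplp0, whose values cannot be taken as those of the gene, as given below. Rplp1 had 8.94 and 8.99 at 24 h, against 9.03 to 9.55 in old and 9.61 to 9.73 in young cells at 0 h (-0.55, adjusted p = 0.216, limma). In CD4 cells Rplp1 and Rplp2 fell at 12, 24 and 72 h, Rplp2 by 1.30, 1.96 and 1.11. Rplp2 had 9.36 to 9.48 in old and 8.78 to 9.70 in young CD4 cells at 0 h, 9.35 and 8.91 at 4 h, 8.31 and 7.83 at 12 h, 7.24 and 7.56 at 24 h, and 8.62 and 7.88 at 72 h. The probe named Rplp0 went the other way, with a rise of 1.16 at 72 h (adjusted p = 0.00199, limma). It had 7.14 and 7.42, against 5.16 to 6.15 in old and 6.14 to 6.59 in young cells at 0 h. That probe lies on chromosome 8 (101459316 to 101459375, mm7) and rests on an accession other than the RefSeq one. The RefSeq start of Rplp0 lies on chromosome 5, so the values of this probe cannot be taken as those of the gene. Both probes under the older name Arbp carry the RefSeq accession of Rplp0 and are outside the naming rule. They had 8.36 and 8.30 on the old and young CD4 72 h arrays for one probe, against 8.74 to 9.54 at 0 h, and were flagged for the other. On the old and young CD8 24 h arrays the first had 8.59 and 8.73, against 9.01 to 9.57 at 0 h. The other had 8.71 and 8.75 there, against 8.79 to 9.05 at 0 h. Rpsa, the small subunit protein also known as the laminin receptor, rose at 72 h in CD4 cells (0.96, adjusted p = 0.00426) and did not pass at any time in CD8 cells (-0.07 at 12 h, adjusted p = 0.869).

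Other genes of the ribosome pathway were counted in the same arrays, against 14.3%, 16% and 16.1% of all genes that rose in CD8 cells at 4, 12 and 24 h and 13%, 14.2% and 17% that fell. Of 78 mitochondrial ribosomal protein genes, which serve the ribosome inside mitochondria, 57 rose and 0 fell in CD8 cells at 12 h (median 1.13) and 52 rose and 0 fell at 24 h (median 1.01). In CD4 cells 64 rose and 0 fell of 77 at 12 h, where 24.2% and 16.4% of all genes did. Of 19 ribosome assembly factors 18 rose and 0 fell in CD8 cells at 4 h (median 1.67), led by Rrp9 (2.55) and Nop58 (2.23), and 15 rose and 0 fell at 24 h. Of 16 initiation factors, which load the ribosome onto mRNA, 13 rose in CD8 cells at 4 h and 12 at 24 h, with 0 falls. Myc, which drives ribosome production, rose in CD8 cells by 2.80 at 4 h (limma adjusted p = 1.15e-07) and 1.42 at 12 h (0.00017), with 0.62 at 24 h (0.0525) and 0.51 at 72 h (0.119). Larp1, which binds TOP mRNAs, rose by 1.78, 1.41, 0.87 and 0.80 at the 4 times. In CD4 cells Myc rose by 3.65, 3.07, 2.23 and 1.73 and Larp1 by 2.54, 2.19, 1.40 and 1.51.

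Of 22 further TOP mRNAs tested, among them elongation factors, 5 rose and 4 fell in CD8 cells at 24 h (median -0.02). Of 16 mTOR and Myc pathway genes 4 rose and 3 fell (median 0.03). Of 4 subunit genes outside the naming rule 0 rose and 2 fell (median -0.64), and Fau, which makes a small subunit protein fused to a ubiquitin-like one, had -0.68 (adjusted p = 0.0204, limma). These lists are described by counts only.

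At 0 h part of the family was higher in CD8 than in CD4 cells. Of the 79 genes, 13 were higher in CD8 and 0 lower, against 8.73% of all genes higher and 4.91% lower, and 75 of 79 differences were positive, with a median of 0.30 against 0.02 over all genes (limma, adjusted p below 0.05). Rps26, a small subunit protein near the mRNA exit, had 6.85 to 7.09 in old and 6.48 to 7.01 in young CD8 cells, against 4.73 to 5.81 in old and 5.51 to 6.42 in young CD4 cells. The CD8 and CD4 ranges do not overlap, and the difference was 1.09 (SE 0.24, adjusted p = 0.0143). Rpl37, of the large subunit, had 7.60 to 8.14 in old and 7.47 to 7.59 in young CD8 cells, against 6.34 to 6.91 in old and 6.18 to 7.01 in young CD4 cells (0.99, SE 0.19, adjusted p = 0.00796). Rpl28, Rps27l and Rpl15 followed with 0.83, 0.82 and 0.77. Rpsa and the probe named Rplp0 were among the 13 with 0.59 and 0.65 and ranges that overlap. That probe lies on another chromosome than the gene Rplp0.

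**Figure D5:**
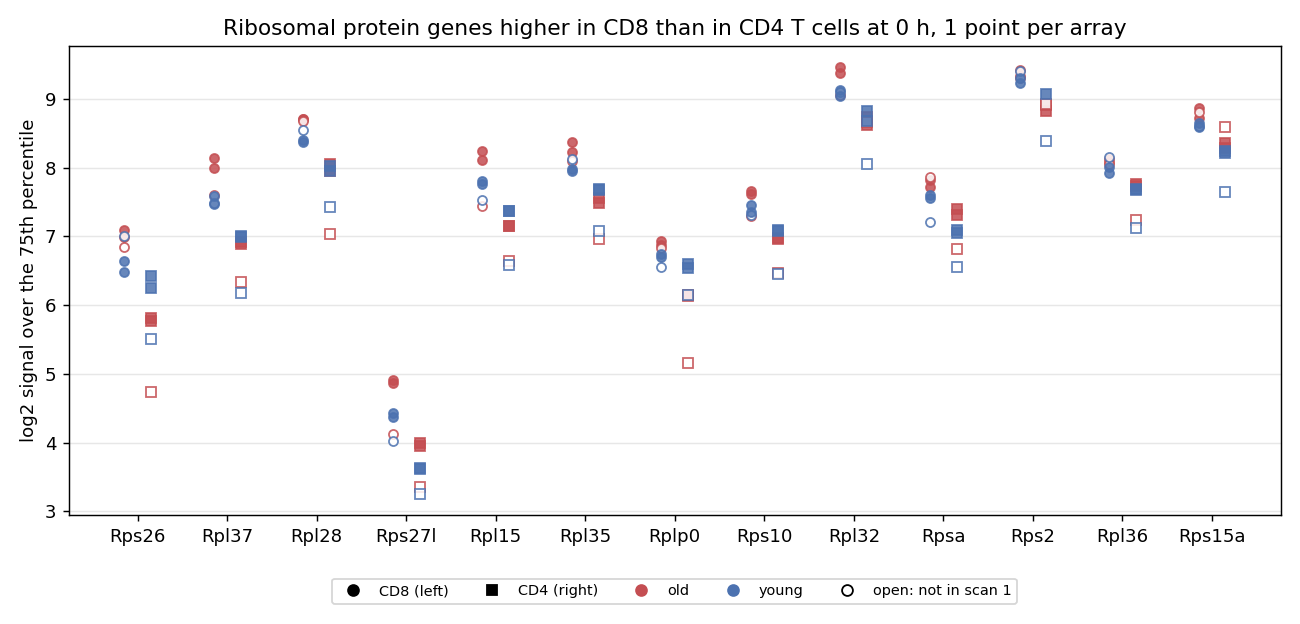
The 13 ribosomal protein genes higher in CD8 (circles) than in CD4 cells (squares) at 0 h, as log2 signal over the 75th percentile on each of the 12 arrays, old in red and young in blue. Filled points are arrays of the first scan, and open points are arrays scanned at other times. For all 13 genes the lowest CD4 value is an open square, that of replicate 3 at either age.

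These calls depend on the scaling and on single arrays. Relative to the median of all genes the difference was 0.28, with 0.29 under median scaling and 0.11 after quantile normalization. With arrays scaled to their median 0 were called (2 at an unadjusted p below 0.05, limma), and with quantile normalization 4. Slides hold 1 cell type each, and with the slide as a random block 0 were called (17 unadjusted). On the arrays of the first scan alone, with 4 of each cell type, 45 genes were higher in CD8 and 0 lower, with a median of 0.32. The share of all genes called on those arrays is not given here. The 45 therefore cannot be set against the 8.73% above or read as particular to the family. Without the first or the second old CD8 array 3 were called, without the second or the third young one 4, without the first young one 8, and without the first and the second old CD4 array 7 and 6. Of the marker lists, 3 of 11 tested B cell markers and 2 of 6 NK cell markers were also higher in CD8 at 0 h, and their part in the difference was not tested.

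No ribosomal protein gene passed the test between old and young cells. At 0 h 0 of 79 passed in CD8 cells, where 2.21% of all genes did, and 0 at an unadjusted p below 0.05 (limma). In CD4 cells 0 passed, where 1.72% of all genes did, and 5 at an unadjusted p below 0.05. The medians of old minus young were 0.04 in CD8 and 0.09 in CD4 cells. Of 11 tested B cell markers 2 were higher in old CD8 and 4 in old CD4 cells. In the stimulated arrays 0 passed in CD8 cells (0.412% of all genes, 0 unadjusted) and 0 in CD4 cells (0.113%, 2 unadjusted). The age difference passed a test between CD8 and CD4 cells at 0 h for no gene (0 of 79, 0.0515% of all genes, 1 unadjusted), but with the slide as a fixed block 4 passed, where 13.4% of all genes did.

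The largest age differences in CD4 cells at 0 h were in Rpl21, lower in old cells, and Rpl30, higher in old cells. Rpl21 had 2.17, 1.94 and 1.45 in old and 3.53, 3.64 and 4.26 in young cells, which do not overlap, a difference of -1.95 (SE 0.83, limma adjusted p = 0.265). In CD8 cells its values overlapped, with 1.41, 2.35 and 5.12 in old and 4.14, 2.52 and 2.41 in young cells. Rpl30 had 7.58 to 8.09 in old and 7.08 and 7.14 in young CD4 cells (0.65, adjusted p = 0.432), and in CD8 cells 6.07 to 7.31 in old and 7.31 and 7.59 in young cells (-0.60, adjusted p = 0.681). Next in CD4 cells came Rps26 (-0.62, adjusted p = 0.379) and Rpl27a (0.64, adjusted p = 0.238). The other large values in CD8 cells were those of Rps27a (-0.40, adjusted p = 0.825), Rpl29 (0.57, adjusted p = 0.782) and Rps19 (0.49, adjusted p = 0.699, limma).

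The age comparison in CD4 cells mixes slides. Old minus young had a median of -0.14 on slide 1 (2 arrays each, 20 genes higher in old and 59 lower). On slide 2 (replicate 3, 1 array each) it was 0.60, with 64 higher and 15 lower. The slides thus disagree in direction. The medians over all genes were -0.06 and -0.05, and the counts were not made over all genes. With the slide as a fixed block 6 ribosomal protein genes passed in CD4 cells, where 22.9% of all genes did. Chosen after the values were seen, they include Rpl21 (-1.95, SE 0.41, limma adjusted p = 0.0147), the probe named Rplp0 (-0.61) and Rps26 (-0.62), lower in old cells. Also among them are Rpl27a (0.58) and Rpl14 (0.57), higher in old cells. In CD8 cells the medians were 0.07 on slide 7 and -0.04 on slide 8, and 0 of 79 passed with the block, where 9.57% of all genes did (8 unadjusted).

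In stimulated CD8 cells the median of the family was lower in old than in young cells at each time, without any gene passing the test. The medians of old minus young were -0.10 at 4 h, -0.43 at 12 h, -0.11 at 24 h and -0.46 at 72 h, against -0.08, -0.14, 0.02 and 0.08 over all genes, so the 4 h value lies close to that of all genes. At 72 h 77 of 79 genes of the family were lower in old cells, a count not made over all genes. Each value is 1 array against 1, and the old 12 h array is the one that stands apart. At 12 h the old and the young array also differ in slide and scan, which cannot be told apart from age. The fitted median over the 4 times was -0.30, or -0.24 relative to the median of all genes. The relative difference was -0.24 with arrays scaled to their median, which raises all genes by 0.29, and -0.06 after quantile normalization. At 72 h Rps19 had 8.37 in old and 8.83 in young cells, and Rps28 8.75 and 9.20. The largest fitted age differences there were Rpl30 (-0.84, adjusted p = 0.685, limma), Rpl21 (-0.65), Rpl4 (0.35) and Rpsa (0.35). In stimulated CD4 cells the medians were 0.09, 0.43, -0.06 and -0.06, against -0.24, 0.28, 0.15 and 0.01 over all genes. Rps24 (-2.79) and Rpl27 (-2.63), through the old 24 h array, and Rps7 (0.96, adjusted p = 0.525) and Rps4x (0.86) had the largest ones, none of which passed.

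The mean change over the 4 stimulated times differed between CD8 and CD4 cells for 11 of 60 genes. The 60 had at least 1 measured array at each time in both cell types. In 5 the change was higher in CD8, against 3.26% of all genes, and in 6 lower, against 6.24% (limma, adjusted p below 0.05). Rplp1 (1.39, adjusted p = 0.0133), Rps7 (1.36), Rpl7 (0.94), Rplp2 (0.87) and Rpl21 (2.41) had the higher change in CD8 cells, and Rpl29 (-1.73), Rpl7l1 (-1.04), Rpl35 (-0.93), Rpl15 (-0.92), Rpl32 (-0.90) and Rpl31 (-0.82) the lower one. The CD4 side of each rests on the arrays that stand apart. The stimulated CD4 and CD8 arrays were also read on different scanner models. Without the first old CD8 0 h array 7 passed, and 0 passed with the slide as a random block (16 unadjusted, limma). The call of Rpl21, whose 0 h values scatter widely, was lost in 22 of 37 alternatives.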

How the data were processed

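The authors deposited 1 scanner file per array (Agilent Feature Extraction 9.5.1.1 on 10 arrays and 10.1.1.1 on 18, per the file headers), with processed, background-subtracted Cy3 intensity. Their table of log2 values, deposited by the authors and centred per probe (column medians -0.97 to 0.49), ran in the direction and on the scale of the scanner files; how it was made is not given in the sources used here. It served as an alternative at 0 h only. Log2 processed intensity minus the array's 75th percentile was used. Control and outlier-flagged spots were left out, and spots of a probe averaged. Of 27655 genes 19434 entered. Names came from RefSeq by accession (22951 probes), symbol (6659) or synonym (3152), or from the files (8412). Of the members' spots 6, of 5 genes, were saturated.

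Tests used limma 3.58.1 in R 4.3.3 with Benjamini-Hochberg adjustment over all genes at 0.05, on all 28 arrays with age as a term for stimulation, on the 12 arrays at 0 h, or on the 16 stimulated arrays for age. On simulated data for CD8 cells at 12 h (17278 genes), 12% of genes changed by 1 and 61% of those changed by 2 (log2) were called. For age in stimulated CD8 cells (17835 genes) the shares were 1% and 40%. On the arrays themselves 5860 of 19433 genes were called in CD8 cells at 12 h, and 80 of 19434 for age in stimulated CD8 cells. The share of changes of these sizes that is called on the arrays was not tested. Same-numbered old and young 0 h arrays deviated together in CD4 (r = 0.55, 0.49 and 0.68, sharing slides) but not in CD8 cells (-0.24, 0.09 and -0.41). No replicates held identical values. Alternatives were scalings, filters, probe rules, blocks, flagged spots and left-out arrays.

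Members, lists and tests were chosen with earlier results of these data known. Named are the paralogs, stalk proteins, Rpsa, Rps6, the 5 largest differences in each direction past the threshold (the 2 largest where none passed), at most 4 genes of other lists, Myc and Larp1. Others are examples chosen after their values were seen. Some members that the rule would name are not reported here.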

Additional observations from a re-analysis of the deposited data

Results flagged for a closer look

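In 11 genes the mean change over the 4 stimulated times differed between CD8 and CD4 cells by a test of the difference itself (CD8 minus CD4, limma, adjusted p below 0.05). Rpl29 had -1.73, Rpl7l1 -1.04, Rpl35 -0.93, Rpl15 -0.92, Rpl32 -0.9 and Rpl31 -0.82, all of the large subunit or, for Rpl7l1, related to it. Rpl21 had 2.41, Rplp1 1.39, Rps7 1.36, Rpl7 0.94 and Rplp2 0.87. The call of Rpl21, with 1.41 to 5.12 among the CD8 0 h arrays, was lost in 22 of 37 alternatives. The CD4 arrays at 12, 24 and 72 h, with a repeat variation of 16.9 to 22.2%, enter each of these values, and with the slide as a random block 0 of the 11 passed (16 members at an unadjusted p below 0.05). The second probe of Rpl7l1, averaged in, turned its difference to 0.69. No 0 h group was large enough for a test of single arrays that lie far from the rest.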

How the results depend on the processing

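Counts are of ribosomal protein genes that passed (limma). The share of all genes that passed under each alternative is not given, so no count below can be read as particular to the family. With arrays scaled to their median, counts in CD4 cells were 16 at 12 h, 20 at 24 h and 7 at 72 h, in CD8 cells 2 at 12 h and 3 at 24 h, 0 for CD8 against CD4 at 0 h and 1 for the stimulation change of CD8 minus CD4. After quantile normalization CD4 4 h gave 8, CD8 4 h 6, CD8 24 h 9, CD8 against CD4 4 and the stimulation change 17. Without the filter on dim genes CD8 12 h gave 9, CD8 24 h 9, CD8 72 h 1, CD8 against CD4 5 and the stimulation change 7. Requiring signal on all 28 arrays, CD4 4 h gave 7, CD8 4 h 5, CD8 against CD4 20 and the stimulation change 19. With the mean of all probes CD8 72 h gave 7 and the stimulation change 7, and Rpl7l1 reversed to -1.15 in CD4 cells at 72 h and to 0.69 in the stimulation change.

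With the slide as a random block, CD4 12 h gave 21, CD4 72 h 17, CD8 12 h 5, CD8 24 h 1, CD8 72 h 1, CD8 against CD4 0 (17 at an unadjusted p below 0.05) and the stimulation change 0 (16). As a fixed block it gave 6 for age in CD4 and 4 for the age difference of CD8 minus CD4. With normexp on the median signal CD8 12 h gave 11, CD8 24 h 6, CD8 72 h 47 (46 lower) and the stimulation change 7. Normexp on the mean signal, as planned, was not run because 18 files lack that column. Chosen after seeing the data, 0 h arrays of matched slides alone gave 4, 2 and 1 for CD8 12, 24 and 72 h and 0 (12) for the stimulation change. Without the 7 arrays that stand apart CD4 4 h gave 5 and CD8 12 h 5. Keeping flagged spots gave 16 for the stimulation change. The first scan alone gave 45 for CD8 against CD4. The times of the authors' table gave 20 for CD8 4 h and 3 for CD8 24 h. The cause of these moves was not tested.

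Leaving out 1 array at a time gave 2 to 9, 26 to 42, 25 to 44 and 13 to 34 at 4, 12, 24 and 72 h in CD4 cells (13 without the young 72 h array) and 1 to 5, 5 to 21, 1 to 18 and 1 to 2 in CD8 cells. CD4 4 h gave 9 and 7 without the third young and old 0 h arrays and 5 without either 12 h array. CD8 4 h gave 5 without the third old 0 h array and 1 without the young 4 h array, and CD8 72 h gave 1 without either 72 h array or without young 0 h replicate 1 or 3. It gave 3 to 14 for CD8 against CD4, 7 to 16 for the stimulation change and 0 for each age comparison. With the replicate number as a block, counts were 0 for age in each cell type, 14 for CD8 against CD4 and 0 for the age difference, against 0, 0, 13 and 0 without it. The authors' deposited table gave 0, 0, 14 and 0. Of 1866 values of 74 named-gene results under alternatives, 1616 kept direction and side of the threshold, 248 lost the call and 2 reversed.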

Other observations

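Among the 4 subunit genes tested that lie outside the naming rule, Fau was the example with the clearest fall in CD8 cells at 24 h (-0.68, SE 0.21, limma adjusted p = 0.0204). Larp1, whose protein binds the starts of TOP mRNAs, rose in CD8 cells at all 4 times (1.78, 1.41, 0.87 and 0.80 at 4, 12, 24 and 72 h). The median of the ribosomal protein genes was below 0 at each of these times with the main scaling. With arrays scaled to their median it was 0.05 at 72 h. A link between Larp1 and these genes was not tested.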
